A study of Homo sapiens with 6 samples.

Results

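Small nucleolar RNAs (snoRNAs) and small Cajal body RNAs (scaRNAs) were compared between wild-type (WT) and THUMPD1 knockout (KO) HEK-293T cells, a human line derived from embryonic kidney and grown without limit. Members were the rows of the count table whose symbol begins with SNORA, SNORD or SCARNA and whose expected counts summed to at least 60 over the 6 libraries. The table holds 58870 rows, of which 458 have these prefixes and 72 reached the limit. They are 46 box H/ACA snoRNAs (SNORA, of 150 rows), 15 box C/D snoRNAs (SNORD, of 283 rows) and 11 scaRNAs (SCARNA, of 25 rows). A pair of rows named SNORA17B covers the same bases of chromosome 9, so the 72 rows stand for 71 symbols. The members were thus chosen by their summed count, so their abundance is described without a test. The limit itself uses no difference between genotypes.

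The 6 libraries were 3 of WT and 3 of THUMPD1 KO cells, all grown in DMEM. THUMPD1 helps the enzyme NAT10 to acetylate cytidine in leucine and serine tRNAs. The KO cells descended from 1 sorted cell after CRISPR-Cas9 editing, so the effects of genotype and of clone cannot be told apart. Total RNA was depleted of ribosomal RNA, made into strand-specific libraries and read as pairs, with total expected counts of 32225646 to 44099898. THUMPD1 itself had 80.9 ± 3.65 counts-per-million units (CPM) in WT and 11.0 ± 0.918 CPM in KO (SD, n = 3 libraries each), or 13.6% of WT. Its log2 fold change was −2.87 (SE 0.084, adjusted p = 1.50e-08, limma-voom), and p was 0.1 in an exact two-sided permutation test, which cannot go lower with 3 libraries in each group. All 4 genes chosen as HEK-293T markers had a summed count of at least 60, against 1 of 8 markers of other cell types (COL1A1), and all 5 of these were called between genotypes, as 22.7% of all genes were. With the replicate number as a block, LHX1 was not (adjusted p = 0.0513).

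snoRNAs are short nuclear RNAs that base pair with ribosomal RNA or small nuclear RNA and place a modification there. Box C/D snoRNAs, bound by fibrillarin (FBL), guide ribose methylation, and box H/ACA snoRNAs, bound by dyskerin (DKC1), guide pseudouridylation. scaRNAs do the same for spliceosomal RNAs in the Cajal body, and a few snoRNAs, such as U3, are needed for cutting the ribosomal RNA precursor rather than for modifying it. Most human snoRNAs are released from introns of host genes, while a few have promoters of their own.

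The class motifs were found in the annotated sequences, read from GRCh38 on each row's own strand. The letters ACA stood in the last 8 bases of 42 of the 46 H/ACA members (91.3%) and in 6.52% of windows of the same length placed 1000 bases downstream. The loose H box pattern ANANNA (N is any base) stood in the central part of 42 of these 46 (91.3%). It was also found in 52.2% of their windows and in 40% of C/D members. In the H/ACA sequences below, the match nearest the middle is in capitals and need not be the H box. The C box TGATGA was found in 12 of the 15 C/D members (80%) and in none of their downstream windows. The D box CTGA stood in the last 15 bases of 10 of these 15 (66.7%), again with none in the windows. TGAG, the core of the Cajal body signal, was present in all 11 scaRNAs but also in 81.8% of their windows, so it did not set them apart.

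Across the 3 classes together, longer rows reached the limit more often. Only 2 of 250 rows under 100 bases (0.8%) became members, against 43 of 154 rows of 125 to 149 bases (27.9%) and 19 of 26 rows of at least 200 bases (73.1%). Of the C/D rows, 249 were under 100 bases long, and 2 of these were members, SNORD33 and SNORD21. The median annotated length was 137 bases for members and 85 bases for the other rows, which are mostly short C/D rows. Within the H/ACA class it was 135 bases for members and 133 for the others. Among all 458 rows, 249 were at 0 in every library and 137 had counts below the limit. The members just inside the limit were SNORD89 with a summed count of 60, SNORD21 with 70.3, SNORA8 with 71.5 and SNORA59A with 83.0. Just outside were SCARNA4 and SNORA5A with 58 each, SNORA49 with 56 and SNORD46 with 55.

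Member counts made up 0.206 to 0.272% of each library, and a few RNAs held most of them. SNORD3A, the main gene of U3, held 56.2% of all member counts, followed by SCARNA2 with 8.46%, SCARNA10 with 6.16%, SNORD17 with 5.73%, SNORA73A with 5.29% and SNORA73B with 3.03%. These 6 rows held 84.9% of the counts. Per length, in CPM per kilobase over all 6 libraries, SNORD3A (1925) was followed by SNORA73A (610), SNORD17 (575), SCARNA2 (481), SCARNA10 (445) and SNORA73B (354). The annotated SNORD3A row is 699 bases long and extends past the U3 RNA at its start, so its level per length is understated.

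Summed over each class, the ranges of the genotypes overlapped. The H/ACA members summed to 315 ± 5.28 CPM in WT and 310 ± 48.3 CPM in KO (SD, n = 3 libraries each). The C/D members summed to 1641 ± 243 CPM in WT and 1474 ± 135 CPM in KO, and without SNORD3A to 206 ± 11.3 and 218 ± 41.3 CPM. The scaRNAs summed to 490 ± 33.5 CPM in WT and 548 ± 60.4 CPM in KO. The scaRNA sums were 455, 522 and 492 CPM in WT 1, 2 and 3, and 487, 608 and 549 CPM in KO 1, 2 and 3. The C/D sums were 1453, 1555 and 1916 CPM in WT, and 1319, 1538 and 1566 CPM in KO. At each replicate number the scaRNA sum was thus higher and the C/D sum lower in KO. Without SNORD3A, the C/D sums were 194, 217 and 208 CPM in WT 1, 2 and 3, and 173, 255 and 227 CPM in KO 1, 2 and 3. The C/D sum without SNORD3A was thus lower in KO only at replicate number 1. None of these sums was tested.

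In the fit across all 18321 genes with a summed count of at least 60, 1 of the 72 members passed an adjusted p of 0.05 (1.39%), whereas 22.7% of all genes tested did (limma-voom, Benjamini-Hochberg adjustment). The member that passed, SNORA47, was lower in KO (over all genes, 11.6% were called higher and 11.1% lower). edgeR called SNORA47 alone (22.1% of all genes), and DESeq2 called SNORA63 alone, as higher (20.5% of all genes). At an unadjusted p of 0.05, 6 members passed, against 35.9% of all genes. No C/D member and no scaRNA passed in the fit, in edgeR or in DESeq2, and 0 C/D members and 3 scaRNAs had an unadjusted p under 0.05.

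The titles of the libraries carry replicate numbers 1 to 3 in both genotypes, and libraries with the same number deviated together. With that number as a block, 8 of the 72 members passed (11.1%, against 29.3% of all genes, 15.3% higher and 14% lower). SCARNA2, SCARNA5, SCARNA7, SCARNA9, SCARNA10 and SNORA63 were higher in KO, and SNORD3A and SNORA47 were lower. By class these were 5 of 11 scaRNAs, 2 of 46 H/ACA members and 1 of 15 C/D members.

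Most members have few counts, and the comparison was weaker for these. Of the 43 members with a summed count of 60 to under 600, 1 was called (2.33%), while 13.2% of all genes in that range were. None of the 19 members with 600 to under 6000 counts and none of the 10 with at least 6000 were called, against 26.6% of all genes in each of these ranges. With the replicate number as a block, 1 of the 43, 2 of the 19 and 5 of the 10 were called. Beside these stood 29.3% of genes of every count, as the share by count range was not taken with the block. The median SE of the log2 fold change was 0.278, 0.135 and 0.0891 for members of the 3 ranges, and 0.263, 0.0970 and 0.0528 for other genes. The median absolute log2 fold change was 0.197, 0.105 and 0.164 for members, and 0.308, 0.168 and 0.0958 for other genes. In the range of at least 6000 counts, both the fold changes and their SEs were thus larger for members. The 95% interval of the fold change lay within 2-fold in either direction for 60 of the 72 members, and within 1.5-fold for 33. For these, a larger change was outside the interval.

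The median log2 fold change was −0.10 for H/ACA members, −0.05 for C/D members and 0.04 for scaRNAs, beside 0.02 over all genes tested. Positive fold changes were found for 16 of 46 H/ACA members, 6 of 15 C/D members and 6 of 11 scaRNAs. CPM ranges of the genotypes did not overlap for 5 members (6.94%), compared with 39.1% of all genes tested, 23.2% with KO higher. SCARNA9, SNORA48 and SNORA84 lay higher in all 3 KO libraries, and SNORA80D and SNORA47 lay lower. SNORA48, SNORA84 and SNORA80D were named after their values were seen, and their adjusted p values were 0.146, 0.268 and 0.129 (limma-voom).

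**Figure D1:**
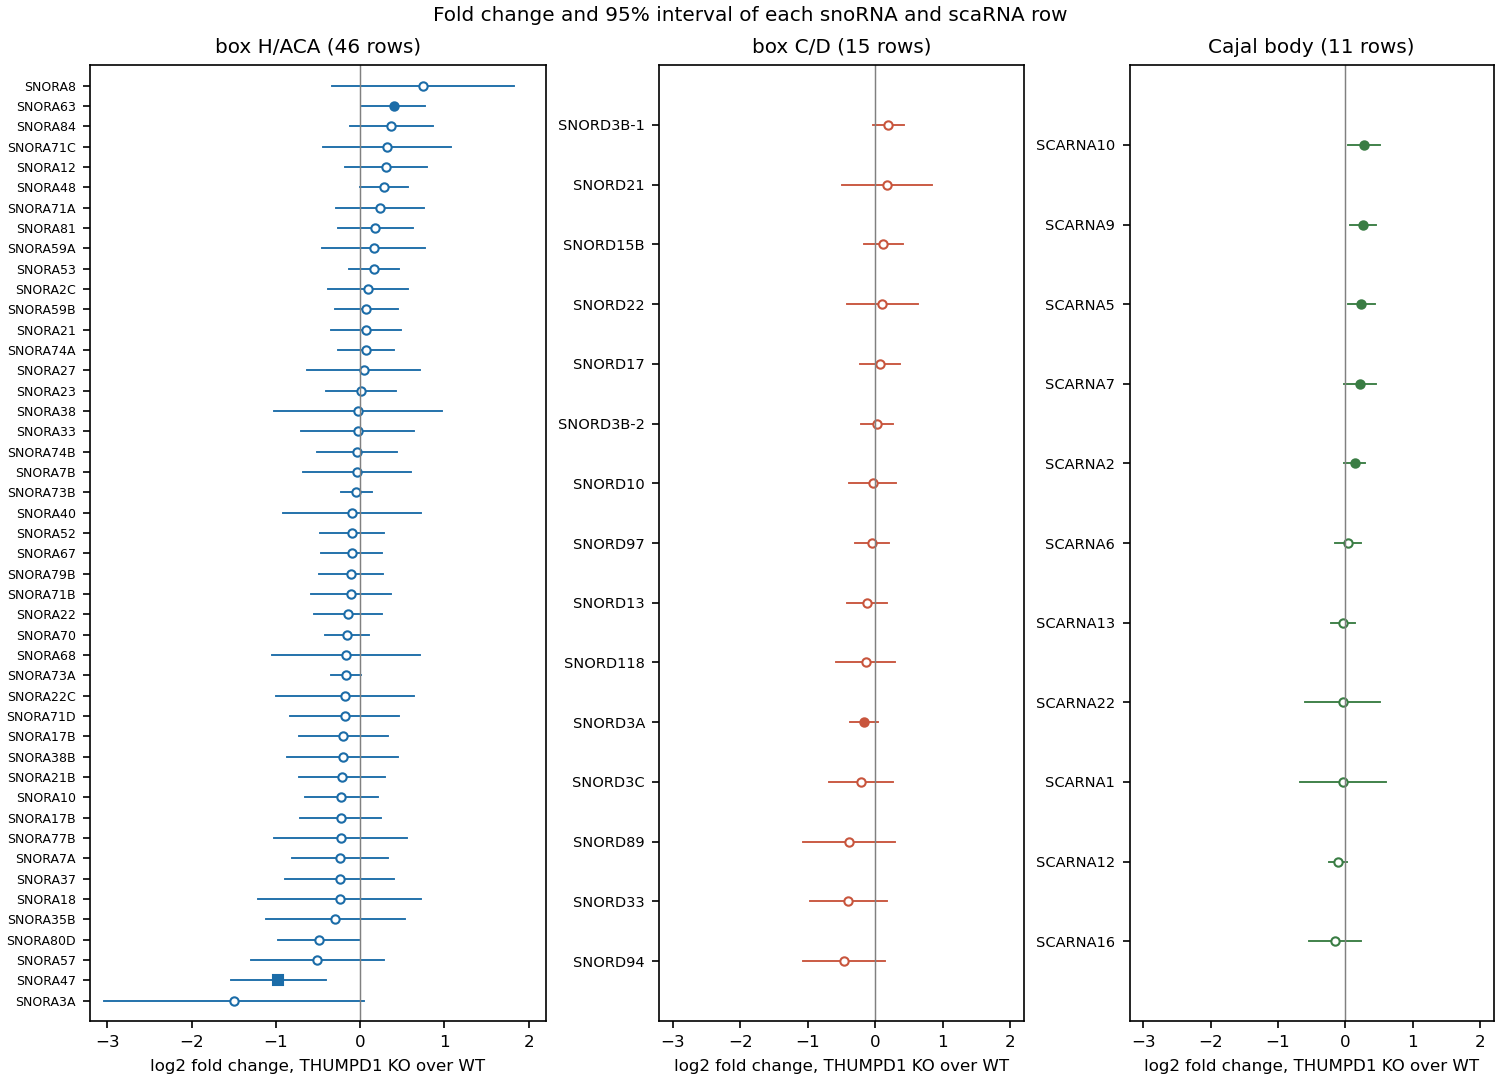
Log2 fold change (THUMPD1 KO over WT, x axis) with its 95% interval for each of the 72 members, in 3 panels by class. A filled square marks the member called in the fit without a block (SNORA47), filled circles mark those called only with the replicate number as a block, and open circles mark the rest. The interval of 60 members lies within 2-fold in either direction.

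The libraries of the KO group stood apart from each other for these RNAs. KO 1 was the lowest of the 6 libraries for 34 of the 72 members (47.2%), whereas it was lowest for 10.9% of all genes tested. KO 2 was the highest library for 36 members (50%), against 16.4% of all genes. As the median deviation from each row's own mean over the 6 libraries, in log2 units, KO 1 was at −0.19, KO 2 at 0.26 and KO 3 at 0.01. The WT libraries lay between −0.06 and 0.04. KO 1 was also lowest for 37 of 83 other genes shorter than 200 bases (44.6%), and for 10.1% of genes of at least 1000 bases. KO 2 was highest for 22.9% of those 83 short genes, with a median deviation of 0.10. Whether recovery of short RNA during library preparation played a part was not tested. Without KO 1, 8 members were called, 7 of them higher in KO, beside 20% of all genes. The higher ones were SCARNA5, SCARNA7, SCARNA10, SNORA48, SNORA53, SNORA63 and SNORD17, and the lower one was SNORA47. Leaving out a WT library also added calls, among them SCARNA9 without WT 1 (adjusted p = 0.0458) or WT 2 (adjusted p = 0.0429, limma-voom).

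**Figure D2:**
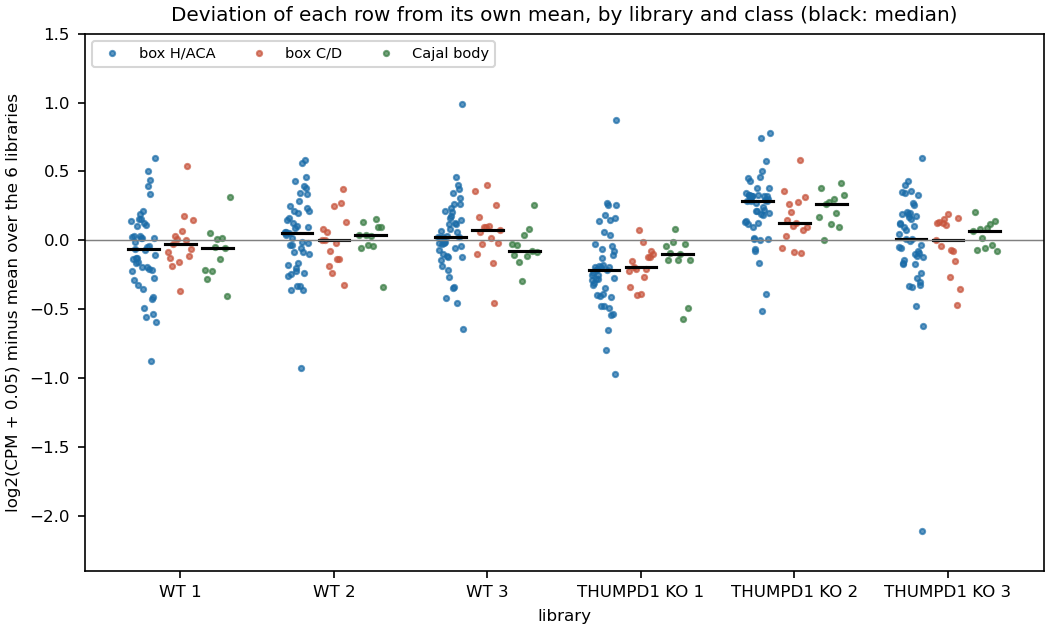
Deviation of each member's log2(CPM + 0.05) from its mean over the 6 libraries (y axis, log2 units), by library (x axis) and class (colour), with black bars at the medians. The medians of all 3 classes are lowest in THUMPD1 KO 1 and highest in THUMPD1 KO 2, and those over all members there are −0.19 and 0.26.

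Among the RNAs of ribosomal RNA processing, U3 was the most abundant. U3 joins the early precursor of the small ribosomal subunit, where it is needed for the first cuts. SNORD3A had 1259, 1338 and 1709 CPM in WT 1, 2 and 3, and 1145, 1283 and 1339 CPM in KO 1, 2 and 3. KO 1 was the lowest and WT 3 the highest library, and the ranges overlapped. The log2 fold change was −0.17 (SE 0.096, adjusted p = 0.228, limma-voom), and the adjusted p was 0.0215 with the block. The first 220 bases of the row, with a TGATGA and the last CTGA in capitals, are shown because this RNA carries most of the counts. They lie at chr17:19188016-19188235 on the plus strand of GRCh38.
SNORD3A: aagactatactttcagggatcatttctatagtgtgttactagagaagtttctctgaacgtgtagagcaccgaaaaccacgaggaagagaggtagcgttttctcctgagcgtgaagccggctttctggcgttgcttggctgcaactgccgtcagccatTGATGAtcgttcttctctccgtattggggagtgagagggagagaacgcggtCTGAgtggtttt

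Reads of U3 cannot be placed on 1 gene with certainty. Over these 220 bases SNORD3A differed from SNORD3B-1, SNORD3B-2 and SNORD3C by 1 base each, and SNORD3B-1 and SNORD3B-2 were identical. SNORD3B-2 had 22.5 ± 2.78 CPM in WT and 22.6 ± 2.19 CPM in KO, with a log2 fold change of 0.02. SNORD3B-1 had 7.79 ± 0.980 and 8.89 ± 0.119 CPM (log2 fold change 0.19), and SNORD3C had 7.52 ± 1.98 and 6.51 ± 1.31 CPM (log2 fold change −0.22). None of these 3 rows was called with or without the block, but without WT 1 the log2 fold change of SNORD3C was −0.49 (adjusted p = 0.0367, limma-voom). Of the 10 rows with a SNORD3 symbol, the other 6, among them SNORD3D, were listed at 0 in every library.

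SNORA73A and SNORA73B, both copies of U17, are H/ACA RNAs that act in precursor cleavage and lie in the same host transcript, SNHG3. Their sequences were identical at 192 of 206 aligned positions (93.2%), with a longest shared run of 54 bases. The H box match and the ACA letters are in capitals. The pair is shown because a read lying wholly within a shared run would not tell them apart. The counts of SNORA73B were nevertheless whole in all 6 libraries, while those of SNORA73A were not. They lie at chr1:28507366-28507571 and chr1:28508559-28508762, both on the plus strand.
SNORA73A: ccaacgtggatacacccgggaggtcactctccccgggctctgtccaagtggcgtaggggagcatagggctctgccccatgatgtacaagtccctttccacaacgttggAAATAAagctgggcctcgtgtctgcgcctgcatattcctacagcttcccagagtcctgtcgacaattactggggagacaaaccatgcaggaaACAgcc
SNORA73B: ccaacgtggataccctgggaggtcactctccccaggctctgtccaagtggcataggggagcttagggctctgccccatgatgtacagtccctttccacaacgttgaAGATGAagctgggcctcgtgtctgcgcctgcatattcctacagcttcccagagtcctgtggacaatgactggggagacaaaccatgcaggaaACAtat

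SNORA73A had 138, 130 and 127 CPM in WT 1, 2 and 3, and 102, 137 and 121 CPM in KO 1, 2 and 3. SNORA73B had 73.2, 74.8 and 71.0 CPM in the WT libraries and 60.3, 79.3 and 74.4 CPM in the KO libraries. In both, KO 1 was the lowest library and the KO values spread more widely than the WT values. The log2 fold changes were −0.17 (SE 0.083, adjusted p = 0.172) and −0.04 (SE 0.085, adjusted p = 0.756), and that of SNHG3 was −0.03 (SE 0.052, adjusted p = 0.753, limma-voom). Without KO 2 the fall of SNORA73A passed, with an adjusted p of 0.0325.

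SNORA63 (E3), a further H/ACA RNA of precursor processing, lies in EIF4A2, the gene of a translation initiation helicase. It had 7.54, 8.13 and 8.36 CPM in WT 1, 2 and 3, and 8.07, 12.6 and 11.8 CPM in KO 1, 2 and 3. KO 2 and KO 3 were above all WT libraries, while KO 1 lay among them. The log2 fold change was 0.40 (SE 0.17, 95% interval of the fold 1.02 to 1.70, adjusted p = 0.117, limma-voom). It passed in DESeq2 (adjusted p = 0.0319), with the block (adjusted p = 0.0126) and without KO 1 (adjusted p = 0.00316). EIF4A2 had a log2 fold change of 0.05 (SE 0.042), and the other H/ACA member of that gene, SNORA81, one of 0.18 (SE 0.20). The sequence of SNORA63, at chr3:186787300-186787431 on the plus strand, follows with the H box match and the ACA letters in capitals.
SNORA63: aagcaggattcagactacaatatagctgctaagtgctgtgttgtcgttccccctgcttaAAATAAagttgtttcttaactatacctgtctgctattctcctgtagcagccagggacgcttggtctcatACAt

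The remaining processing RNAs had few counts. SNORD13 (U13) is a guide for acetylation by NAT10 within the small ribosomal RNA. It had 3.89, 3.65 and 3.997 CPM in WT 1, 2 and 3, and 3.68, 4.06 and 3.07 CPM in KO 1, 2 and 3. The ranges overlapped, and the log2 fold change was −0.12 with a 95% interval of the fold from 0.747 to 1.13. SNORD118 (U8), which acts in large subunit processing, had 1.41 ± 0.157 CPM in WT and 1.39 ± 0.281 CPM in KO. SNORD22 (U22), needed for the small subunit, had 1.18 ± 0.0774 and 1.40 ± 0.455 CPM. Of 17 processing RNAs listed, 10 were members and 0 were called (22.7% of all genes), while 2 were called with the block (SNORA63 and SNORD3A, beside 29.3% of all genes). At 0 in all libraries were SNORD3D and SNORD14E, and the other members of the U14 family (SNORD14A to SNORD14D) and SNORA62 (E2) had summed counts of 2.41 to 44.5.

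Among the other H/ACA members, SNORA47 was the one called. It had 0.783, 0.817 and 0.590 CPM in WT 1, 2 and 3, and 0.463, 0.363 and 0.372 CPM in KO 1, 2 and 3. These values rest on 33, 32 and 22 counts in WT and 18, 16 and 12 in KO. All KO libraries were below all WT libraries. The log2 fold change was −0.97 (SE 0.26, 95% interval of the fold 0.346 to 0.753), with an adjusted p of 0.0186 in limma-voom, 0.0308 in edgeR and 0.125 in DESeq2. The call was lost without KO 2 (adjusted p = 0.0760), without KO 3 (adjusted p = 0.0605) or without WT 2 (adjusted p = 0.0610), with log2 fold changes of −0.91, −0.94 and −0.86. The RNA lies in an intron of ZBED3, a zinc-finger gene whose own log2 fold change was −0.38 (SE 0.20, adjusted p = 0.188). Another annotated gene covers the same bases on the opposite strand. The sequence is at chr5:77080434-77080571 on the minus strand, with the H box match and the ACA letters in capitals.
SNORA47: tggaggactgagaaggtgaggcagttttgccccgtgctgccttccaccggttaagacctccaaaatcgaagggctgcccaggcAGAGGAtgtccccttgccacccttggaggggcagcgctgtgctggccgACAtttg

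Other abundant H/ACA members did not pass. SNORA53, in SLC25A3 (the mitochondrial phosphate carrier), had 27.7 ± 2.70 CPM in WT and 31.1 ± 6.19 CPM in KO, with a log2 fold change of 0.16. SNORA70, in RPL10 (a large subunit ribosomal protein), had 11.9 ± 0.481 and 10.7 ± 1.56 CPM, with a log2 fold change of −0.15. Over all H/ACA members, log2 fold changes ran from −1.50 to 0.75. Both ends of that range came from rows with few counts, namely SNORA3A (summed count 84.1) and SNORA8 (71.5). SNORA3A, named for that reason, had 0.458, 0.282 and 0.619 CPM in WT 1, 2 and 3, and 0.327, 0.387 and 0.0279 CPM in KO 1, 2 and 3. KO 3 alone was far below the others, and the log2 fold change of SNORA3A ran from −2.23 to −0.41 as single libraries were left out.

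Among the C/D members outside the U3 family, SNORD17 was the most abundant. It lies in an intron of SNX5, a sorting nexin, on the minus strand of chr20:17962710-17962946. Its sequence is shown because it carries both class boxes (capitals).
SNORD17: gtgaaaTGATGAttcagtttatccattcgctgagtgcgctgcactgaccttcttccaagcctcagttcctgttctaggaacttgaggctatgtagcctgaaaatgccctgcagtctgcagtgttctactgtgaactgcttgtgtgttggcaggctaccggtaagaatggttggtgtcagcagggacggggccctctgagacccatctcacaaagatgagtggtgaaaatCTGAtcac

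SNORD17 had 123, 142 and 126 CPM in WT 1, 2 and 3, and 107, 172 and 147 CPM in KO 1, 2 and 3. The KO libraries held both the lowest and the highest value. Its log2 fold change was 0.07 (SE 0.13, adjusted p = 0.732), although SNX5 rose by 0.22 (SE 0.048, adjusted p = 0.00647, limma-voom). Without KO 1, SNORD17 was called as well, with a log2 fold change of 0.27 (adjusted p = 0.0388).

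SNORD97 lies in EIF4G2 (a translation factor), with CTR9 on the opposite strand, and had 10.8 ± 0.374 CPM in WT and 10.4 ± 1.23 CPM in KO. Its log2 fold change was −0.05 (SE 0.11), whereas that of EIF4G2 was 0.18 (SE 0.041, adjusted p = 0.0101, limma-voom). SNORD15B, in RPS3 (a small subunit ribosomal protein), had 9.21 ± 0.701 and 10.1 ± 1.64 CPM. SNORD10, in EIF4A1 (a translation initiation helicase), had 9.39 ± 0.571 and 9.37 ± 2.01 CPM. Neither was called, and neither was its host. Over the 15 C/D members, log2 fold changes ran from −0.47 to 0.19.

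scaRNAs were the class with the smallest errors, with a median SE of 0.091 against 0.23 for H/ACA and 0.16 for C/D members. SCARNA2, which has its own promoter and guides methylation of the U2 spliceosomal RNA, had 173, 207 and 198 CPM in WT 1, 2 and 3, and 196, 227 and 211 CPM in KO 1, 2 and 3. Each KO library was above the WT library of its own number, but the ranges overlapped. The log2 fold change was 0.14 (SE 0.070, adjusted p = 0.186), and the adjusted p with the block was 0.0183 (limma-voom).

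SCARNA10 (U85), in NCAPD2 (a condensin subunit), guides modification of the U5 spliceosomal RNA. It had 120, 140 and 135 CPM in WT 1, 2 and 3, and 131, 189 and 167 CPM in KO 1, 2 and 3. KO 2 and KO 3 were above every WT library, and KO 1 was within the WT range. The log2 fold change was 0.27 (SE 0.11, adjusted p = 0.0978, and 0.00315 with the block, limma-voom), and that of NCAPD2 was 0.10 (SE 0.050, adjusted p = 0.165).

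SCARNA5 (U87) and SCARNA6 (U88) share a host, ATG16L1, an autophagy gene, and are shown together for that reason. They were identical at 185 of 291 aligned positions (63.6%), with no shared run over 15 bases. Their coordinates are chr2:233275727-233276002 and chr2:233288676-233288940 on the plus strand. Every TGAG is in capitals wherever it lies, and the last in each sequence overlaps the D box letters CTGA.
SCARNA5: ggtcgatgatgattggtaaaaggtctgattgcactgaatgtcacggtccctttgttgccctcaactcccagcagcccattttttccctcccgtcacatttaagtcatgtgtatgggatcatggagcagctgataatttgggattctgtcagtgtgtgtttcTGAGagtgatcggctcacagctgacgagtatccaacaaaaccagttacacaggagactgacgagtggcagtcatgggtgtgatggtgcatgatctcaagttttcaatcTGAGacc
SCARNA6: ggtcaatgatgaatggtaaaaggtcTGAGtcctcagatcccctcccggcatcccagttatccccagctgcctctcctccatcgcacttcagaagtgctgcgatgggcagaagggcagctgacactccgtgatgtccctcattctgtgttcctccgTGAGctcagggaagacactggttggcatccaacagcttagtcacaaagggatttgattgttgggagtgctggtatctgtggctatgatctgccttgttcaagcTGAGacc

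SCARNA5 had 30.8, 36.9 and 32.1 CPM in WT 1, 2 and 3, and 35.7, 43.2 and 38.0 CPM in KO 1, 2 and 3. SCARNA6, named as its neighbour after values were seen, had 12.0, 13.4 and 11.8 CPM in WT and 12.2, 13.4 and 12.2 CPM in KO. SCARNA5 was higher in KO at each replicate number, and the SCARNA6 ranges overlapped almost fully. The log2 fold changes were 0.23 (SE 0.091, adjusted p = 0.0862, and 0.00414 with the block) and 0.04 (SE 0.089, adjusted p = 0.813), beside 0.03 (SE 0.062) for ATG16L1 (limma-voom). The difference between the 2 scaRNAs was not tested.

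SCARNA9 and SCARNA7 were named after their values were seen. SCARNA9 had 27.4, 27.7 and 23.1 CPM in WT 1, 2 and 3, and 30.1, 34.4 and 28.7 CPM in KO 1, 2 and 3, so that all KO libraries were above all WT libraries. Its log2 fold change of 0.26 (SE 0.087) had an adjusted p of 0.0518, and of 0.00688 with the block (limma-voom). Its host CEP295, a centriole gene, rose by 0.16 (SE 0.050, adjusted p = 0.0381). SCARNA7 had a log2 fold change of 0.21 (SE 0.11, adjusted p = 0.187, and 0.0497 with the block), and its host KPNA4, a nuclear import receptor, rose by 0.22 (SE 0.049, adjusted p = 0.00807).

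Not all scaRNAs lay higher. SCARNA12, in PHB2 (prohibitin), had 38.4 ± 2.21 CPM in WT and 35.7 ± 1.22 CPM in KO, a log2 fold change of −0.11 (SE 0.060). SCARNA13, in SNHG10, had 23.7 ± 0.244 and 23.0 ± 2.15 CPM, a log2 fold change of −0.04 (SE 0.080). In limma-voom neither was called with or without the block, while edgeR with the block called SCARNA12 lower (adjusted p = 0.0437). The log2 fold changes of the 11 scaRNAs ran from −0.16 to 0.27.

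**Figure D3:**
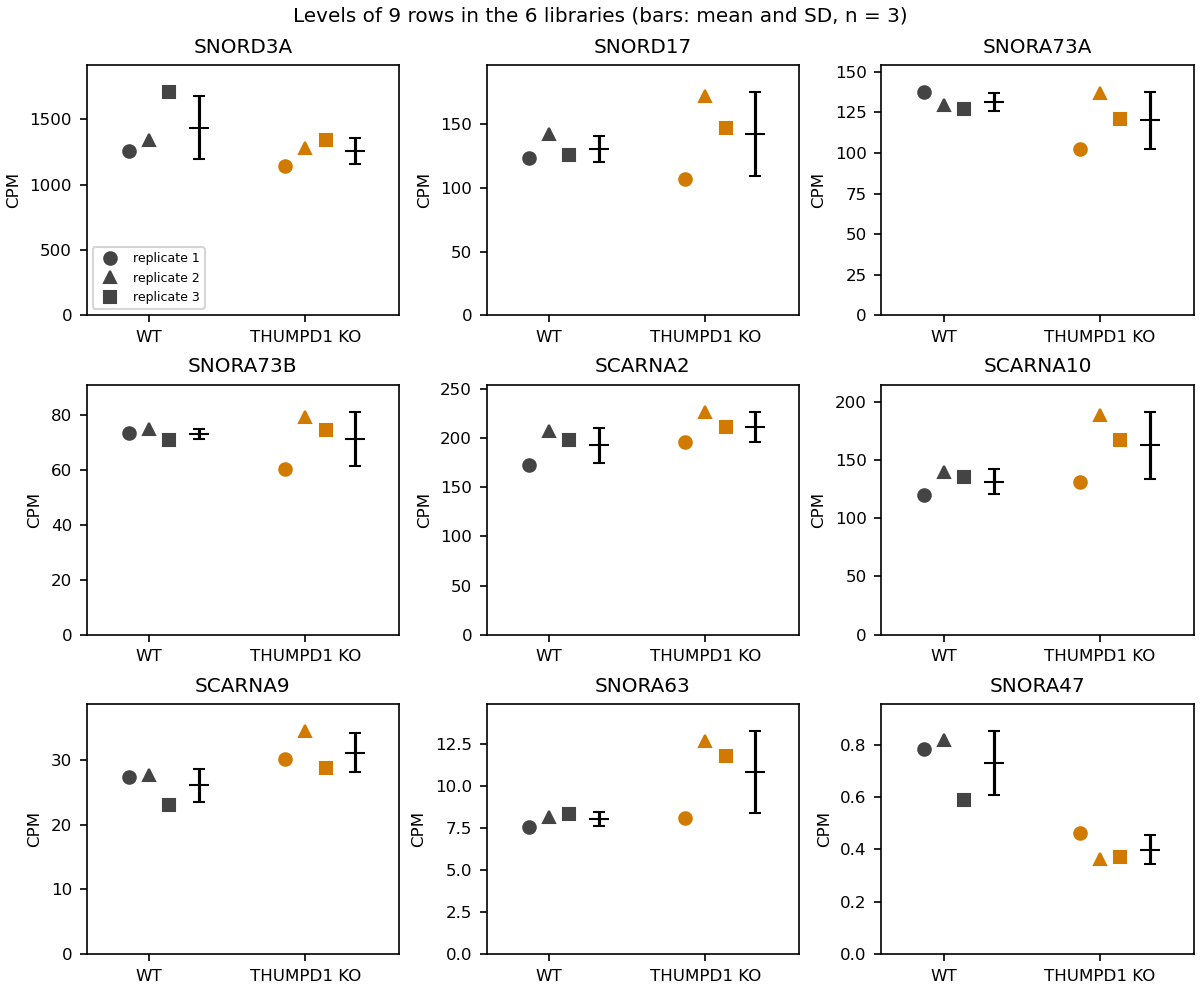
CPM (y axis, from 0) of 9 members in the 3 WT (grey) and 3 THUMPD1 KO (orange) libraries, with symbols for the replicate number and bars for the mean and SD (n = 3). SNORA47 and SCARNA9 show no overlap between genotypes, while in SNORD17 the KO libraries span 107 to 172 CPM and enclose the WT values.

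For 65 members, a gene on the same strand whose span holds the member was in the table, which gave 53 host genes. These include 12 ribosomal protein genes and 7 SNHG genes, whose known role is to carry snoRNAs. Of the hosts, 10 were called (18.9%), 7 higher and 3 lower, against 22.7% of all genes. The 3 lower hosts were RPS2 (log2 fold change −0.24, adjusted p = 0.00137), RANBP1 (−0.16, adjusted p = 0.0196) and RPS12 (−0.16, adjusted p = 0.0318, limma-voom). Their members SNORA10, SNORA77B and SNORA33 had log2 fold changes of −0.22 (SE 0.20), −0.23 (SE 0.36) and −0.03 (SE 0.31). No member in a called host was itself called in the same fit, though SCARNA7, SCARNA9 and SNORD17 were under other settings given above. These hosts and members were named after values were seen.

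Across the 65 members, which are not independent where they share a host, the log2 fold changes of member and host had a Pearson r of 0.368 and a Spearman rho of 0.308, with the same sign in 39. For the 23 with at least 600 counts, r was 0.434 and rho 0.517. These values share the same 6 libraries, and 36 of the 72 members overlap an annotated exon of their host, so that reads of host transcripts can be counted for the member. The count was whole in every library, within 0.005, for 30 of the 72 members, and for the others RSEM divided reads between rows.

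**Figure D4:**
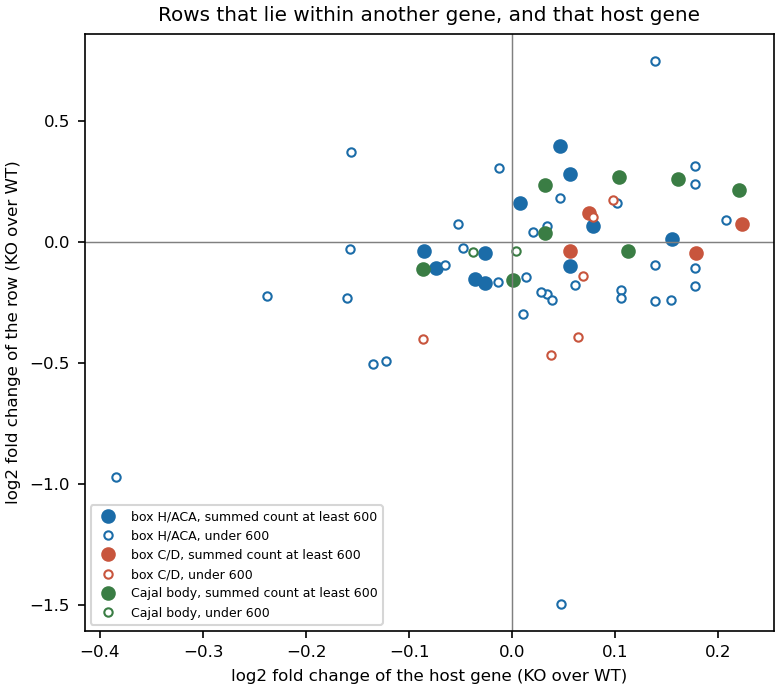
Log2 fold change (THUMPD1 KO over WT) of each member with a host (y axis) against that of its host gene (x axis), for 65 members coloured by class, filled where the summed count was at least 600. The 23 filled points have a Pearson r of 0.434, and SNORA47 lies at the lower left with its host ZBED3.

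The proteins that bind, assemble and trim these RNAs were also measured. Of 36 such genes listed, 4 were called (11.1%, against 22.7% of all genes), and 5 with the block. PARN, the nuclease that trims the ends of H/ACA RNAs, fell from 57.4 ± 4.92 to 39.4 ± 1.65 CPM (log2 fold change −0.54, SE 0.064). SNU13, the protein that first binds the C/D fold, fell from 92.2 ± 4.89 to 73.0 ± 1.88 CPM (log2 fold change −0.34, SE 0.051). ZNHIT6, a C/D assembly factor, fell from 87.3 ± 1.32 to 75.9 ± 2.26 CPM, and DIS3, an exosome nuclease, rose from 277 ± 1.96 to 310 ± 11.2 CPM. DIS3 was not called by edgeR (adjusted p = 0.10). FBL (log2 fold change −0.06), NOP56 (0.07) and DKC1 (0.05) were not called.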

How the data were processed

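RNA-seq of 3 WT and 3 THUMPD1 KO libraries was analysed. The authors used STAR for alignment to GRCh38 and deposited RSEM expected counts per gene, not scaled between libraries. Versions and the strand setting are not given in the sources used here. Expected counts divide multiply mapped reads between rows, which affects repeated snoRNAs. CPM is the expected count in counts-per-million units of the library's total, and 1 CPM stands for 32.2 to 44.1 counts.

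Genes with a summed count of at least 60 were tested with limma-voom after quantile normalization (limma 3.58.1, R 4.3.3), as in the study, which however filtered at 1 CPM, with two-sided tests and Benjamini-Hochberg adjustment over 18321 genes at 0.05. Alternatives included edgeR 4.0.16 and DESeq2 1.42.0 on rounded counts. limma-voom and edgeR, both without a block, and DESeq2 were tested on simulated data. The fits with the replicate block and the other alternatives were not. Members, lists and tests were chosen with earlier results of these data known. Named were THUMPD1, the 5 members of each class highest per length, members called by limma-voom and edgeR, listed processing and own-promoter RNAs, their hosts, up to 6 genes each of the protein and other small RNA lists, and rows next to the limit. FBL, NOP56 and DKC1 were named as core proteins after their values were seen.

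Same-numbered libraries deviated together over 11717 genes (correlations 0.287, 0.257 and 0.162, against −0.275 to 0.113 for different numbers), so the replicate number was used as a block beside the main fit. The labels do not say that libraries came from separate cultures, so p-values measure the spread between these libraries, and fewer cells with an RNA cannot be told apart from less RNA per cell. Positions and sequences came from GENCODE 44 on GRCh38, in which all 458 rows were found, although the study names GENCODE 46. Hosts are genes of at least 1000 bases on the same strand.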

Additional observations from a re-analysis of the deposited data

How the results depend on the processing

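The count of called members, 1 of 72, rose to 8 with the replicate block (2 H/ACA, 1 C/D and 5 scaRNAs) and to 7 in edgeR with the replicate block, an alternative added after the data were seen (2 H/ACA, 1 C/D and 4 scaRNAs, of which 3 higher), beside 29.3% and 28.7% of all genes. With sample quality weights it was 6 (4 H/ACA and 2 scaRNAs, beside 31.0% of all genes), and with rows of 1 symbol summed it was 2, the second being 1 scaRNA. In the main fit, none was called among the 29 members with at least 600 counts, of which 11 are H/ACA, or at an adjusted p of 0.01 (0 H/ACA). With the block, 2 of the 19 members with 600 to under 6000 counts and 5 of the 10 with at least 6000 were called. SCARNA5, SCARNA9 and SCARNA10 then passed 0.01 (limma-voom). With a filter of 1 CPM in 3 libraries, SNORA47 was not tested, and of 46 members 1 scaRNA (SCARNA9, adjusted p = 0.0490) but 0 of 25 H/ACA members were called, beside 26.7% of all genes. The count of called members stayed at 1 with TMM, library sizes alone, no filter on low counts, edgeR and DESeq2. Beside these stood 22.0%, 22.0%, 10.1%, 22.1% and 20.5% of all genes. The replicate block left THUMPD1 called and moved the counts of called hosts, protein genes and all genes by less than 1.5 times.

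Leaving out 1 library at a time gave 0 to 8 called members, 0 to 4 for H/ACA, 0 to 1 for C/D and 0 to 3 for scaRNAs. The highest count came without THUMPD1 KO 1 and the 0 without THUMPD1 KO 3, while 4 were called without WT 1 and 2 without WT 2. Over all genes, 2664 (without THUMPD1 KO 2) to 4369 were called, and of the host genes 4 (without WT 3) to 11, with 5 without THUMPD1 KO 2. The scaRNA median log2 fold change ran from −0.031 to 0.19, the latter without THUMPD1 KO 1. The H/ACA median ran from −0.23 to 0.06 and the C/D median from −0.19 to 0.07, so the sign of each class median depended on single libraries. The cause of these shifts was not tested. THUMPD1 stayed between −2.96 and −2.79, and 3 to 5 of the 36 protein genes were called. Low counts limit the comparison most for the 43 members under 600 counts.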

Other observations

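Brain-expressed imprinted C/D families had no counts. The 48 rows of SNORD115, 30 of SNORD116, 9 of SNORD113 and 30 of SNORD114 were each at 0 in all 6 libraries. At these depths 3 counts, the most that a count of 0 allows for counting error, stand for 0.0680 to 0.0931 CPM per library. Rows of these families are short, and rows under 100 bases seldom had counts in any family. The 386 rows below the limit together held 2140 counts, or 0.382% of the counts of all rows with the 3 prefixes.

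Of 24 other small RNAs listed (RNAs of splicing, RNase MRP and P, the signal recognition particle, 7SK, telomerase and vaults), 18 were tested and 1 was called (5.56%, against 22.7% of all genes tested). RMRP, the RNA of RNase MRP, which cuts the ribosomal RNA precursor, fell from 2859 ± 97.5 CPM in WT to 2534 ± 168 CPM in KO (SD, n = 3 libraries each). Its log2 fold change was −0.20 (SE 0.042, adjusted p = 0.00664, limma-voom). RNU12, of the minor spliceosome, had 17.6 ± 0.711 and 13.1 ± 2.92 CPM, and RNU5B-1, a U5 gene, had 3.69 ± 0.438 and 2.90 ± 0.221 CPM. Their adjusted p values were 0.0531 and 0.0503, and 0.0190 and 0.0282 with the replicate block. TERC, the H/ACA-type RNA of telomerase that PARN also trims, had 54.7 ± 7.08 CPM in WT and 56.8 ± 4.50 CPM in KO, with a log2 fold change of 0.07 (SE 0.092). TERC was named after its values were seen. Of the 18, edgeR called RMRP, RNU12, RN7SL1 and RN7SL2 as lower, beside 22.1% of all genes. The share of calls thus depended on the fit. With the block limma-voom called 4 of the 18 as lower, RN7SL2 among them (adjusted p = 0.0496), beside 29.3% of all genes. THUMPD1 KO 1 was the lowest library for 11 of these 18 RNAs (61.1%).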
